A study of Mus musculus with 8 samples.

Results

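The growth hormone and prolactin receptor pathway was followed in the ventral hippocampus through 10 genes, found by their symbols among the 29442 genes of the count table. All 10 were in the table: the receptors Ghr and Prlr, the kinase Jak2, the transcription factors Stat5a and Stat5b, the inhibitors Cish, Socs2 and Socs3, and the growth factor Igf1 with its receptor Igf1r. The mean count of each was 10 or more. The question was whether these genes differed between the groups, given that the transcripts of both hormones, Gh and Prl, were lower in the libraries labelled DHEA.

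RNA came from female C57BL/6 J mice, 6 to 8 weeks old, that received subcutaneous dehydroepiandrosterone (DHEA, an adrenal androgen precursor) at 30 mg/kg/day or the vehicle, sesame oil, for 21 days, with 4 libraries in each group. The series' design text names 6 tissues while 8 libraries carry labels, and the study's methods give 4 mice in each group, so n counts the labelled libraries. Replicate numbers, 1 to 4 in each group, follow the order of deposit, only name the libraries and pair none. In that order, replicate 4 of each group stands apart from the unbroken run of the other 6 libraries, and the labels give no reason. The labels name no mutation or transgene. The libraries labelled DHEA held 35748416 to 38038361 counts on genes and those labelled sesame oil 31483772 to 35418297. The study's own table of changed genes has the opposite direction to the difference between the labelled groups, so every group here is named by its label, and a positive log2 fold change means a higher level under the label DHEA. All 7 of 7 hippocampal marker genes were detected in every library, with a summed level of 1039 to 1244 CPM (counts scaled to a library total of 1000000), and Neurod6, a transcription factor of hippocampal pyramidal neurons, was the most abundant of them per transcript length. These 7 were used as markers of hippocampus and not of its ventral part. The study's RNA methods name the ventral hippocampus, while its behaviour methods name hippocampal tissue split into left and right portions.

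Growth hormone and prolactin bind related receptors of the cytokine receptor family. Both receptors activate the kinase JAK2, which phosphorylates STAT5A and STAT5B, and these move to the nucleus and bind DNA at sites with the core letters TTCNNNGAA. Cish, Socs2 and Socs3 are induced through STATs and inhibit the same receptors in a feedback loop, and Igf1 is the main growth factor induced by growth hormone in liver. In brain, the prolactin receptor is best known in the choroid plexus, the epithelium that makes cerebrospinal fluid, and in hypothalamic neurons.

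The STAT5 core motif was looked for in the promoters of the pathway genes, taken as 250 bases before to 50 bases after the start site in RefSeq (build GRCm38.p6, not the build of the counts). The motif TTCNNNGAA reads the same on both strands, so a match on 1 strand is a match on both. Promoters were found for 9 of the 10 genes (14 start sites), all but Socs2. The motif was present at 1 start site each of 3 genes, Cish, Socs3 and Prlr, beside 9.55% of all 27025 genes with a promoter. By start site it was present at 3 of 14, beside 8.3% of all 32851 promoters in the table. Of the 3, Cish held 2 of these motifs, which was the case for 0.457% of all promoters. The stretches that carry the motif are shown because they belong to a receptor and to feedback inhibitors whose counts are described next, with the motif in capitals. They lie at chr9:107296579-107296678 (+ strand), chr11:117969467-117969566 (- strand) and chr15:10223750-10223849 (+ strand), the last upstream of the second of 3 listed Prlr start sites.
Cish: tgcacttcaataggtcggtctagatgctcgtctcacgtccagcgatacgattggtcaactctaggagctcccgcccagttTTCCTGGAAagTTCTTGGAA
Socs3: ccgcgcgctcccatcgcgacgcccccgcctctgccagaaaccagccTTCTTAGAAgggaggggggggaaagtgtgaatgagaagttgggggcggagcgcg
Prlr: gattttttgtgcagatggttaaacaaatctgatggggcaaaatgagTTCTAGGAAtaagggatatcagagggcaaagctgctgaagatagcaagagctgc
A match describes these letters only, and binding of STAT5 was not measured.

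Per transcript length, the pathway genes spanned more than an order of magnitude. On the deposited FPKM scale (fragments per kilobase of transcript, scaled to the library total), the mean level over the 8 libraries was 6.24 for Igf1r, 4.49 for Jak2, 4.21 for Prlr, 2.42 for Ghr and 2.33 for Stat5b. It was 1.83 for Socs2, 0.980 for Igf1, 0.727 for Cish, 0.555 for Socs3 and 0.355 for Stat5a. Neighbours in this order had separate ranges only for Igf1r over Jak2, Stat5b over Socs2 and Socs2 over Igf1, so the other steps were within the spread of the libraries. Prlr had by far the widest FPKM range, 0.507 to 7.85, which ran from below the mean level of Socs3 to above that of Igf1r. The receptor Ghr was above Stat5b in only 5 of the 8 libraries. Of the 2 STAT5 genes, Stat5b had the higher FPKM in every library. Stat5a and Stat5b are near-identical neighbours whose reads may be shared, and Stat5a exons overlap those of Stat3 on the other strand, so the level of Stat5a is uncertain.

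**Figure D1:**
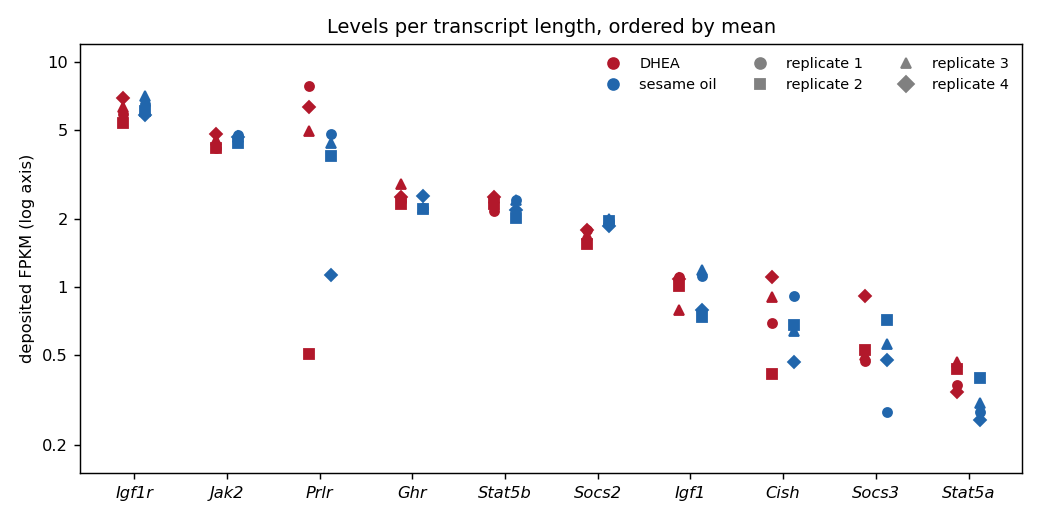
Deposited FPKM (y axis, log scale) of the 10 pathway genes, ordered along the x axis by mean, with 1 point for each of the 8 libraries coloured by label and shaped by replicate. Igf1r is highest and Stat5a lowest by mean, and Prlr spans 0.507 to 7.85.

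The transcripts of the hormones themselves were rare and uneven. Gh, which encodes growth hormone, had 0, 0, 0 and 3 counts in DHEA replicates 1 to 4, and 5, 248, 13 and 50 counts in sesame oil replicates 1 to 4. Prl, which encodes prolactin, had 1, 0, 3 and 8 counts in the libraries labelled DHEA and 18, 591, 25 and 112 in those labelled sesame oil. The groups did not overlap for either hormone, and sesame oil replicate 2 held 76.6% of the Gh level and 76.9% of the Prl level summed over the 8 libraries.

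Against a floor of 3 counts per library, Gh in the DHEA group was lower by at least 27.2-fold, or by at least 8.26-fold without sesame oil replicate 2. The mean Prl level was 5.31 CPM in the libraries labelled sesame oil, or 1.55 CPM without that library, against 0.0823 CPM in those labelled DHEA, which is at the floor of 3 counts (0.0826 CPM), so no fold is given. With edgeR's quasi-likelihood test and Benjamini-Hochberg adjustment over all genes, the adjusted p was 0.0818 for Gh and 0.0647 for Prl. It fell under 0.05 for both hormones without sesame oil replicate 1 (0.0212 for each in edgeR) or without DHEA replicate 3 (0.0432 and 0.0385 in edgeR). Without sesame oil replicate 2 it was 0.358 and 0.191 in edgeR. The adjusted p also depended on the settings with all libraries kept. It stayed near, at 0.0905 for Gh and 0.0721 for Prl, with RLE normalization in edgeR. With robust moderation in edgeR it was 0.356 and 0.351. With filterByExpr it was 0.267 for Prl in edgeR, and Gh was removed. With limma-trend on log2(FPKM + 1) it was 0.541 and 0.474. Of the 11 genes listed as markers of the anterior pituitary, where both hormones are made, Fshb and Gnrhr were at 0 in all libraries, Pou1f1 was counted only in sesame oil replicate 2, and Pomc was the most abundant. The summed pituitary marker level was 6.92 CPM in sesame oil replicate 2 and 1.85 to 3.37 CPM in the other 7 libraries, and Pomc alone made up 4.93 CPM of the former. Without Pomc the sum was 1.99 CPM in sesame oil replicate 2, below 2.32 CPM in both DHEA replicate 1 and sesame oil replicate 1. Lhb, a gonadotropin subunit, made up most of that remainder, at 2.29, 0.645, 1.03 and 1.45 CPM in the libraries labelled DHEA and 2.32, 1.57, 0.889 and 0.682 CPM in those labelled sesame oil. The 9 markers other than Pomc and Lhb summed to 0.421 CPM in sesame oil replicate 2 and to 0 to 0.222 CPM in the other 7 libraries. Tbx19, a transcription factor of corticotropin cells, had 5 counts in sesame oil replicate 2, 1 in sesame oil replicate 3 and 0 elsewhere. Tshb and Ghrhr ran the other way, with 4 counts each in DHEA replicate 3. Tshb had 1 count in sesame oil replicate 4, and Ghrhr had 1 each in DHEA replicate 1 and sesame oil replicates 3 and 4. Of the 9 pituitary markers with a count, these 2 had a positive log2 fold change. At an unadjusted p under 0.05 in edgeR, 2 pituitary markers were lower in the libraries labelled DHEA, Tbx19 and Pomc. Of all genes, 4.49% were lower at that threshold. The log2 fold change of Tbx19 was -3.73. When each library was left out it was -4.12 to -1.95, with an unadjusted p of up to 0.262 in edgeR. The part of pituitary RNA in the hormone counts was not tested. Pomc, the precursor of corticotropin, had a log2 fold change of -1.16 (SE 0.48, adjusted p = 0.471 in edgeR), and of -0.27 (SE 0.41, adjusted p = 0.838 in edgeR) without sesame oil replicate 2.

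None of the 10 pathway genes passed the same test. At an adjusted p under 0.05 the count was 0 of 10 in edgeR, where the share called across all 27612 genes tested was 0.0%. DESeq2 called 0 of the 7 to which it gave an adjusted p, beside 1.27% (154) of the 12142 genes with one. At an unadjusted p under 0.05 it was also 0 of 10, beside 9.31% of all genes. The thresholds of the study (p under 0.05 before adjustment, fold change above 2 or below 0.5) called 1.6% of all genes and none of these. The 2 groups overlapped for all 10, whereas 5.04% of all genes had groups that did not overlap. Of the 10 log2 fold changes 7 were positive, with a median of 0.13, beside a median of 0.01 over all genes tested. In whole-tissue RNA, fewer cells of a type and less RNA per cell cannot be told apart.

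**Figure D2:**
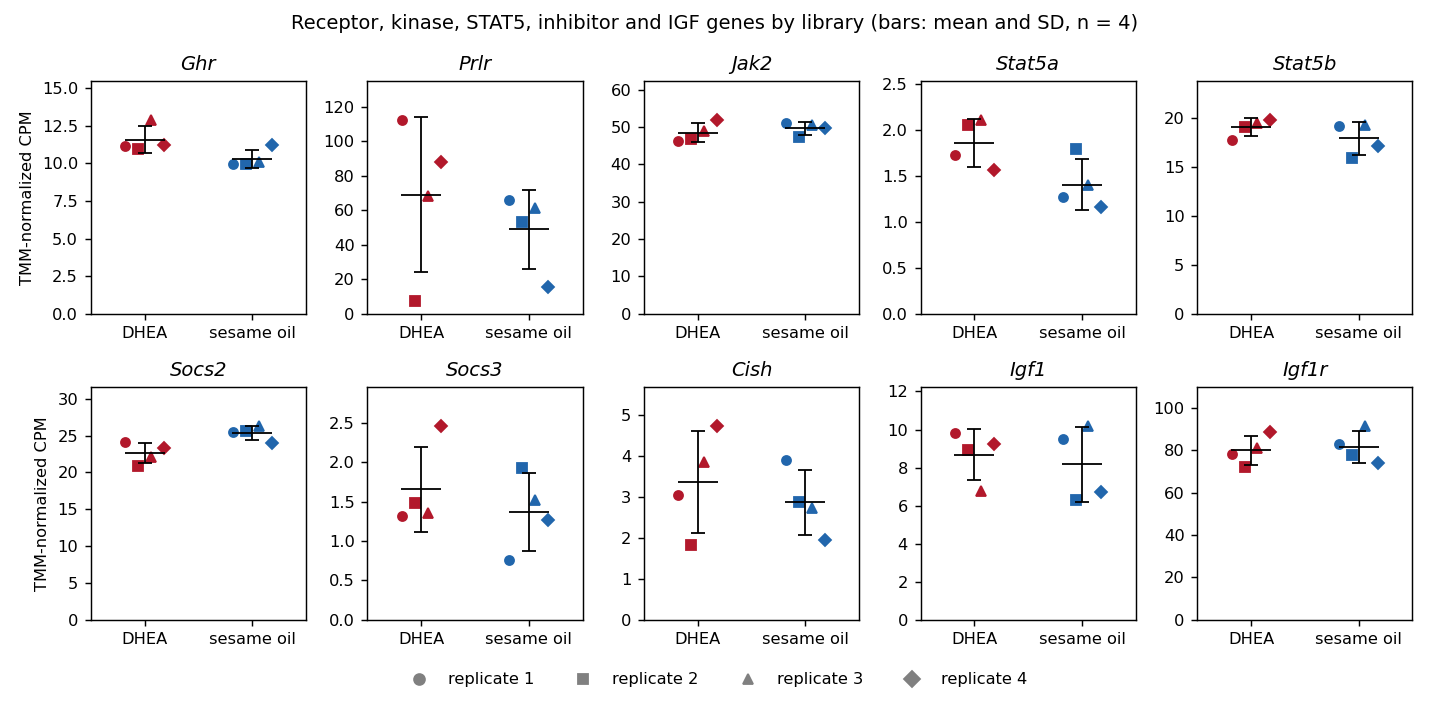
TMM-normalized CPM (y axes, starting at 0) of each pathway gene in the 4 libraries labelled DHEA and the 4 labelled sesame oil, with 1 point per library and bars for the mean and SD. The groups overlap in all 10 panels, most narrowly for Socs2, and Prlr is lowest in DHEA replicate 2 and sesame oil replicate 4.

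Ghr, the growth hormone receptor, was at 11.2, 10.9, 12.9 and 11.2 CPM in DHEA replicates 1 to 4 and at 9.99, 9.98, 10.1 and 11.2 CPM in sesame oil replicates 1 to 4. The groups overlapped only because sesame oil replicate 4 lay above 2 of the libraries of the other group, replicates 1 and 2. Its estimated log2 fold change was 0.16 (SE 0.11, 95% interval -0.06 to 0.39), with an unadjusted p of 0.149 and an adjusted p of 0.645 in edgeR. The interval corresponds to 0.956-fold to 1.31-fold. Over the 18 alternatives the log2 fold change was 0.097 to 0.22, with 0.11 without DHEA replicate 3 and 0.098 with the GC trend removed. Sesame oil replicate 2, with the most Gh counts, had the lowest Ghr level of the 8 libraries. The level of Ghr varied little, with a ratio of 1.29 between its highest and lowest CPM.

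Prlr, the prolactin receptor, was the most variable member, with a 15.3-fold range. It was at 112, 7.32, 68.4 and 87.8 CPM in DHEA replicates 1 to 4 and at 65.8, 53.0, 61.1 and 15.5 CPM in sesame oil replicates 1 to 4. Each group held 1 library far below its other 3, DHEA replicate 2 and sesame oil replicate 4. The log2 fold change was 0.50 (SE 0.48, 95% interval -0.52 to 1.51, unadjusted p = 0.317 and adjusted p = 0.678 in edgeR). The group means were 68.9 ± 44.8 and 48.9 ± 22.8 CPM (SD, n = 4), so the difference was smaller than the SD in either group.

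The Prlr level followed that of choroid plexus marker genes across libraries. The summed CPM of 11 such markers was 4696, 100.1, 2325 and 4355 in DHEA replicates 1 to 4 and 3271, 2136, 2386 and 536 in sesame oil replicates 1 to 4, a 46.9-fold range. The most abundant of them was Ttr, which encodes the thyroid hormone carrier transthyretin. Over the 8 libraries, Prlr CPM and the marker sum, both on the log2 scale, had Pearson's r = 0.986 (exact permutation p = 0.000124, adjusted over 5 genes 0.00062) and Spearman's rho = 0.929 (exact permutation p = 0.00223, adjusted 0.00558). Without DHEA replicate 2 and sesame oil replicate 4, the libraries farthest from the median of the marker sum, r was 0.909. Ghr showed no such relation, with r = -0.05 (exact permutation p = 0.872) and rho = 0.12 (p = 0.793, exact permutation test).

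The other measures of the same kind were Igf2, Igfbp2 and Igf1. Igf2, an insulin-like growth factor made by choroid plexus and meninges, had r = 0.836 (exact permutation p = 0.00335, adjusted 0.00558), rho = 0.952 (p = 0.00114, adjusted 0.00558, exact permutation) and r = 0.837 without the same 2 libraries. Igfbp2, an IGF binding protein, had r = 0.857 (exact permutation p = 0.00208, adjusted 0.00521) and rho = 0.905 (p = 0.00456, adjusted 0.00761, exact permutation). Its r was 0.675 without the same 2 libraries. Igf1 had r = 0.19 (exact permutation p = 0.720) and rho = 0.67 (p = 0.0831, exact permutation), and r = 0.632 without the same 2 libraries. The level of Igf2 was 123 to 389 CPM in the libraries labelled DHEA and 142 to 237 CPM in those labelled sesame oil, with DHEA replicate 2 lowest and DHEA replicate 1 highest.

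**Figure D3:**
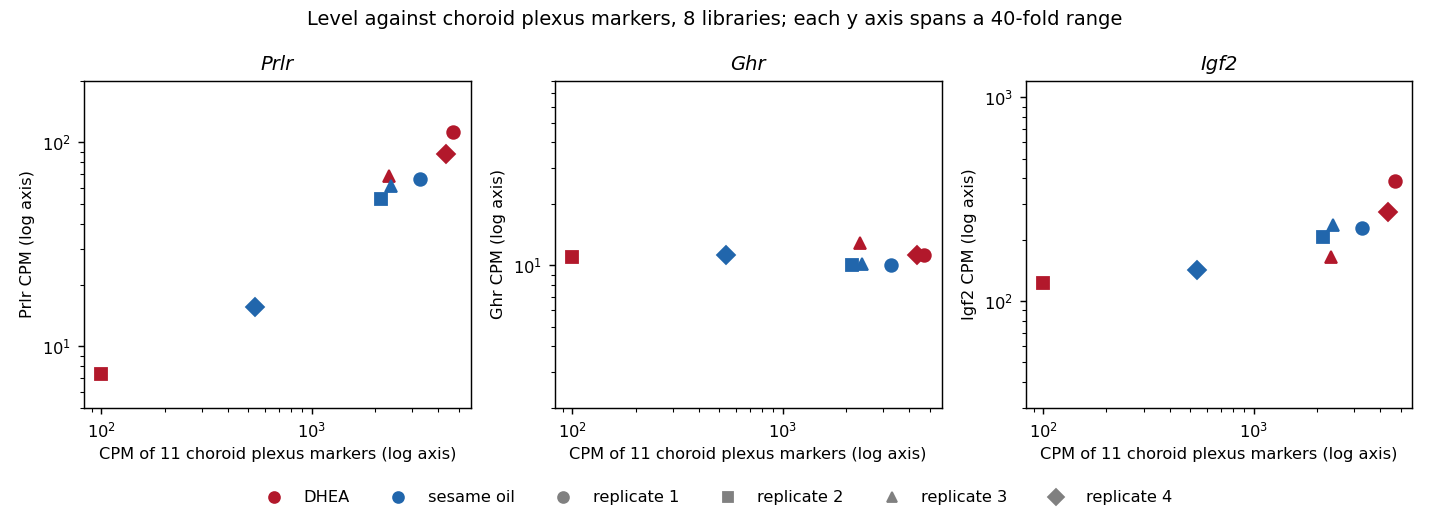
CPM of Prlr, Ghr and Igf2 (y axes, log scale, all spanning the same ratio) against the summed CPM of 11 choroid plexus markers (x axes, log scale) in the 8 libraries. Prlr is higher where the markers are higher, from 7.32 CPM in DHEA replicate 2 to 112 CPM in DHEA replicate 1, while Ghr stays between 9.98 and 12.9 CPM.

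Divided by the summed CPM of the 10 choroid plexus markers other than Ttr, Prlr varied 1.30-fold, from 0.145 in DHEA replicate 4 to 0.188 in DHEA replicate 3. This ratio was 0.171 ± 0.020 in the libraries labelled DHEA and 0.157 ± 0.0073 in those labelled sesame oil (SD, n = 4), a difference that did not pass a two-sided exact permutation test (p = 0.286). Other denominators gave wider ranges. Divided by the sum of all 11 markers, which is mostly Ttr, Prlr varied 3.63-fold, from 0.0201 in sesame oil replicate 1 to 0.0732 in DHEA replicate 2 (exact permutation p = 0.600 between the groups), and divided by Kl alone it varied 1.83-fold, from 0.325 in DHEA replicate 2 to 0.593 in DHEA replicate 3 (exact permutation p = 0.943). Among the 13938 genes whose mean count was 50 or more, those most like Prlr across the 8 libraries were F5 (r = 0.995), Kl (r = 0.994) and Ecrg4 (r = 0.993), on the log2(CPM + 0.5) scale. F5 encodes coagulation factor V and Kl encodes klotho, and both were among the 11 choroid plexus markers. All 11 markers stood among the 22 genes most like Prlr, Ttr as number 22. For Ghr the most similar genes were Npepl1 (r = 0.928), Sytl5 (r = 0.920) and Gm32510 (r = 0.920), none of them a choroid plexus marker.

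The call on Prlr depended on DHEA replicate 2. Without that library its log2 fold change was 0.87 (SE 0.27, unadjusted p = 0.00412, adjusted p = 0.386 in edgeR), and without both that library and sesame oil replicate 4 it was 0.57 (SE 0.12, unadjusted p = 0.000145, adjusted p = 0.109 in edgeR). That pair was left out after the data were seen, for its lowest levels of Ttr, 1 of the 11 choroid plexus markers. The pair holds the lowest Prlr library of each group, so its removal narrows the spread, and that fit is not an independent test. Without sesame oil replicate 4 alone the log2 fold change of Prlr was 0.20 (SE 0.46, unadjusted p = 0.669 in edgeR), with 0 of 11 choroid plexus markers at an unadjusted p under 0.05. In each of the fits without DHEA replicate 2 that are given here 11 of 11 choroid plexus markers were also higher in the libraries labelled DHEA at an unadjusted p under 0.05, whereas 0 of 11 were with all libraries. Of all genes, 1983 and 1824 were under that threshold in these 2 fits, in either direction, beside 2571 (9.31%) with all libraries. The share of all genes that were higher in these 2 fits was not worked out. The 11 markers varied together across the libraries, so 11 of 11 does not stand for 11 separate results. The median log2 fold change of the 11 markers was 0.85 and 0.55 in these 2 fits. Prlr therefore had in them a log2 fold change close to that of the markers, a likeness given without a test, and the part of choroid plexus tissue in its level was not tested.

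Jak2, the kinase bound to both receptors, was the steadiest of the 10. Its level was 46.3 to 51.9 CPM in the libraries labelled DHEA and 47.2 to 51.1 CPM in those labelled sesame oil, a ratio of 1.12 between the extremes. The log2 fold change was -0.04 (SE 0.07, 95% interval -0.18 to 0.11, adjusted p = 0.867 in edgeR). At this depth a change of Jak2 beyond 0.885-fold or 1.08-fold was outside the interval. Stat5b, the more abundant STAT5 gene, was at 17.8, 19.1, 19.6 and 19.8 CPM in the libraries labelled DHEA and at 19.3, 16.0, 19.3 and 17.2 CPM in those labelled sesame oil. The estimate was a log2 fold change of 0.09 (SE 0.09, adjusted p = 0.707 in edgeR), and was 0.037 without sesame oil replicate 2. The groups overlapped.

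Stat5a was at 1.72, 2.05, 2.11 and 1.56 CPM in DHEA replicates 1 to 4 and at 1.27, 1.79, 1.40 and 1.16 CPM in sesame oil replicates 1 to 4. Only sesame oil replicate 2 reached into the range of the libraries labelled DHEA, where it lay above replicates 1 and 4. Its estimated log2 fold change was 0.40 (SE 0.26, 95% interval -0.13 to 0.94), with an unadjusted p of 0.132 and an adjusted p of 0.643 in edgeR. The mean count of Stat5a was 57.4, against 646 for Stat5b.

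Of the 3 inhibitors, Socs2 came closest to a difference. Socs2, a feedback inhibitor of growth hormone signalling, was at 24.1, 20.9, 22.1 and 23.3 CPM in DHEA replicates 1 to 4 and at 25.5, 25.6, 26.3 and 24.0 CPM in sesame oil replicates 1 to 4. The groups met only at DHEA replicate 1 and sesame oil replicate 4, and 3 of 4 libraries labelled DHEA were below every library labelled sesame oil. For Socs2 the log2 fold change was -0.17 (SE 0.08, 95% interval -0.34 to 0.01), with an unadjusted p of 0.0598 and an adjusted p of 0.553 in edgeR, a change of 0.791-fold to 1.01-fold. The sign was negative in all 18 alternative analyses, and the unadjusted p was under 0.05 in 6 of them, with an adjusted p of 0.271 to 0.803 over the 18. Sesame oil replicate 2 ranked 2 of 8 for Socs2.

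Cish, whose promoter carries both STAT5 core motifs shown above, was at 3.04, 1.82, 3.86 and 4.74 CPM in the libraries labelled DHEA and at 3.89, 2.89, 2.73 and 1.96 CPM in those labelled sesame oil. The lowest and the highest library both came from the DHEA group. In edgeR, the log2 fold change was 0.23 (SE 0.27, 95% interval -0.33 to 0.79, adjusted p = 0.741 in edgeR). When each library was left out it ranged from 0.021 without DHEA replicate 4 to 0.43 without DHEA replicate 2. Sesame oil replicate 2, with 591 Prl counts, ranked 5 of 8 for Cish.

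Socs3, which also inhibits receptors that signal through gp130, was at 1.32, 1.49, 1.36 and 2.46 CPM in the libraries labelled DHEA and at 0.755, 1.93, 1.52 and 1.28 CPM in those labelled sesame oil. DHEA replicate 4 stood apart from its group, and without it the log2 fold change was 0.015. It was 0.070 without sesame oil replicate 1 and 0.485 without sesame oil replicate 2. Sesame oil replicate 2 ranked 2 of 8 and sesame oil replicate 1 was lowest. The log2 fold change was 0.27 (SE 0.32, 95% interval -0.39 to 0.93, adjusted p = 0.744 in edgeR). With a mean count of 53.3, the interval of Socs3 ran from 0.761-fold to 1.91-fold.

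**Figure D4:**
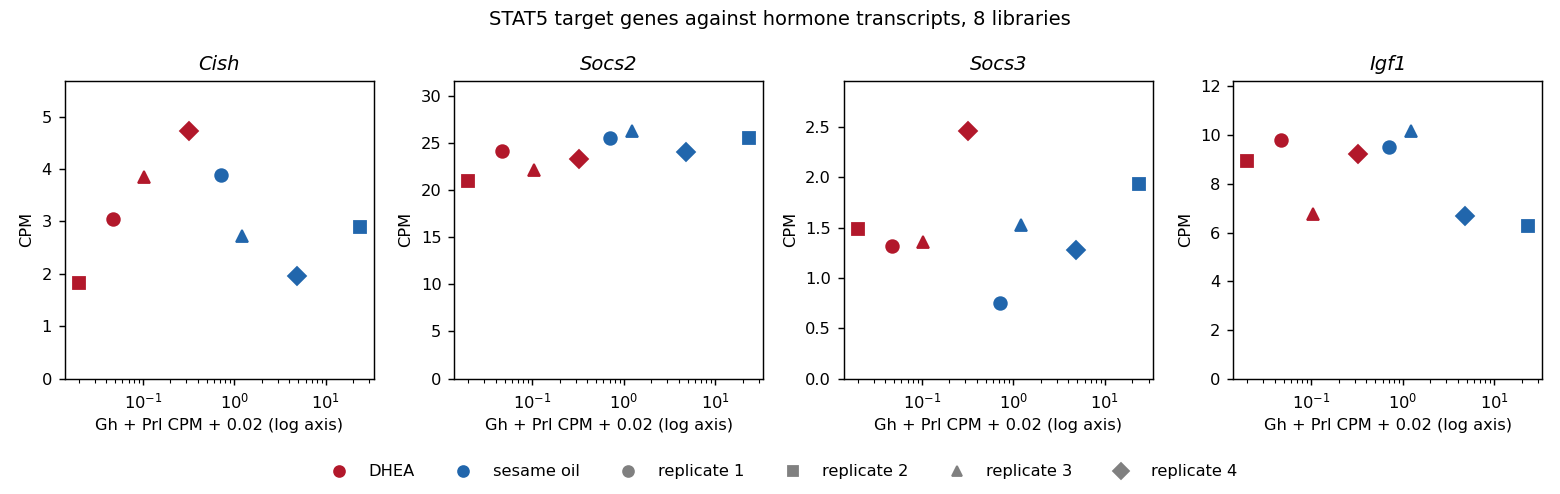
CPM of Cish, Socs2, Socs3 and Igf1 (y axes, starting at 0) against the summed CPM of Gh and Prl plus 0.02 (x axes, log scale) in the 8 libraries. The library with the most hormone transcripts, sesame oil replicate 2, ranks 5 of 8 for Cish, 2 of 8 for Socs2, 2 of 8 for Socs3 and 8 of 8 for Igf1.

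Igf1 was at 9.80, 8.95, 6.77 and 9.22 CPM in the libraries labelled DHEA and at 9.51, 6.28, 10.2 and 6.70 CPM in those labelled sesame oil. Sesame oil replicate 2, highest in Gh, was lowest in Igf1. The log2 fold change was 0.09 (SE 0.17, 95% interval -0.26 to 0.44, adjusted p = 0.861 in edgeR) and had the opposite sign, -0.018, without sesame oil replicate 2. The genes most like Igf1 across the 8 libraries were Ccdc126 (r = 0.979), Mb21d2 (r = 0.968) and Cyren (r = 0.966).

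Igf1r, the receptor of IGF1, was at 72.0 to 88.7 CPM in the libraries labelled DHEA and at 74.2 to 91.6 CPM in those labelled sesame oil. The estimate was a log2 fold change of -0.03 (SE 0.08, 95% interval -0.19 to 0.13, adjusted p = 0.908 in edgeR), and the sign turned without DHEA replicate 2 (0.01) and without sesame oil replicate 3 (0.02). For Igf1r a change beyond 0.875-fold or 1.10-fold was outside the interval.

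**Figure D5:**
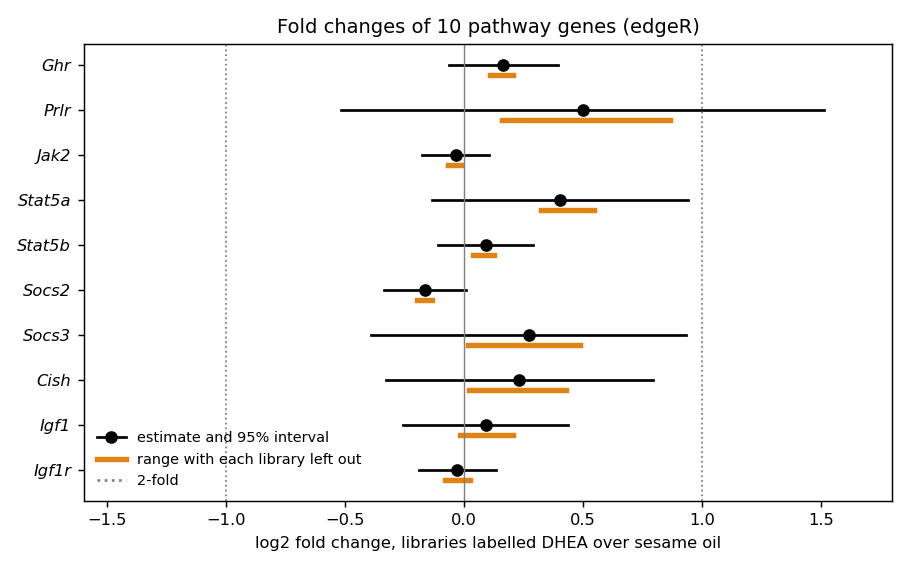
Log2 fold change of each pathway gene, libraries labelled DHEA over sesame oil (x axis), from edgeR with its 95% interval (black) and the range when each of the 8 libraries is left out in turn (orange). All 10 intervals include 0, and those of Prlr and Jak2 are the widest and the narrowest.

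A further 70 genes of the pathway, in 7 lists, were described in the same way, and 69 of them had at least 1 count. At an unadjusted p under 0.05 in edgeR, 6 were higher in the libraries labelled DHEA, beside 4.82% of all genes, and 2 were lower, beside 4.49%. After adjustment the count was 0 of 69 in edgeR and 0 of the 50 to which DESeq2 gave an adjusted p, beside the same 0.0% and 1.27% over all genes. The median log2 fold change of the 69 genes was 0.04. None of the 8 other JAK and STAT genes and none of the 8 adaptors of the receptors passed the unadjusted threshold. The most abundant of these per transcript length were Jak1, at 31.8 to 35.2 FPKM, and Grb2, at 42.9 to 49.6 FPKM.

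Among the 14 other inhibitors, 2 were higher and 1 lower before adjustment. Socs4, another SOCS box protein, was at 24.9 ± 1.81 against 21.8 ± 1.22 CPM (SD, n = 4; log2 fold change 0.19, SE 0.09, adjusted p = 0.508 in edgeR). Ptpn11, which encodes the phosphatase SHP2, was at 215 ± 16.7 against 195.2 ± 8.36 CPM (log2 fold change 0.14, SE 0.06, adjusted p = 0.521 in edgeR), and was the most abundant inhibitor per transcript length. Ptpn2, a phosphatase that acts on JAK and STAT proteins, was at 26.8, 29.96, 47.2 and 41.3 CPM in DHEA replicates 1 to 4 and between 42.6 and 49.4 CPM in the libraries labelled sesame oil. Its log2 fold change of -0.29 (SE 0.13, adjusted p = 0.513 in edgeR) was -0.17 without DHEA replicate 1 (unadjusted p = 0.145 in edgeR).

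Of the 15 other IGF axis genes, Igfbp7 alone passed the unadjusted threshold. Igfbp7, an IGF binding protein abundant in blood vessels, was at 21.9, 18.1, 15.01 and 21.6 CPM in the libraries labelled DHEA and at 16.1, 13.1, 15.4 and 15.5 CPM in those labelled sesame oil (log2 fold change 0.35, SE 0.12, adjusted p = 0.364 in edgeR). DHEA replicate 3 lay within the range of the sesame oil libraries, and the other 3 lay above it. The unadjusted p was under 0.05 in 18 of 18 alternatives, with an adjusted p of 0.0630 to 0.727. Of 7 endothelial markers, 3 were higher at an unadjusted p under 0.05, Ly6c1, Slco1a4 and Pecam1, and none was lower. Of all genes, 4.82% were higher and 4.49% lower at that threshold. The summed level of these 7 markers was 307 ± 26.3 CPM in the libraries labelled DHEA and 273 ± 9.42 CPM in those labelled sesame oil (exact permutation p = 0.0857, n = 4), with Cldn5 the most abundant per transcript length, and their part in the Igfbp7 level was not tested. The most abundant IGF axis gene by mean FPKM over the 8 libraries, though not in each of them, was Igf2, at 20.9 to 66.7 FPKM.

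Among 11 other STAT5 target genes, Pim3 was higher and Pim2 lower before adjustment, both of them survival kinases. Pim3 was at 20.97 ± 3.14 against 17.1 ± 1.85 CPM (log2 fold change 0.29, SE 0.11, adjusted p = 0.421 in edgeR) and Pim2 at 28.0 ± 2.47 against 31.8 ± 2.13 CPM (log2 fold change -0.18, SE 0.08, adjusted p = 0.531 in edgeR). Ccnd1, which encodes cyclin D1 and was the most abundant of this list by mean over the 8 libraries, was at 14.7 to 17.1 FPKM. In the libraries labelled sesame oil alone, mean FPKM was 15.71 for Pim2 and 15.70 for Ccnd1.

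Of 9 further receptors that use JAK2 or gp130, Osmr and Csf2rb were higher before adjustment. Osmr, the oncostatin M receptor, was at 8.85 ± 1.89 against 6.91 ± 1.28 CPM (log2 fold change 0.36, SE 0.16, adjusted p = 0.522 in edgeR). Csf2rb, the shared beta chain of receptors for GM-CSF and related cytokines, was at 2.38 CPM in DHEA replicate 4 and between 0.483 and 0.915 CPM in the other 7 libraries (log2 fold change 0.93, SE 0.41, adjusted p = 0.499 in edgeR). DHEA replicate 4 was also the library with the highest Socs3, Cish and Osmr levels, and without it the log2 fold change was 0.37 for Csf2rb (unadjusted p = 0.339 in edgeR) and 0.19 for Osmr (unadjusted p = 0.228 in edgeR). Of the 8 further pathway genes under the unadjusted threshold, only Igfbp7 kept a p under 0.05 in each of the 8 fits that left out a library. Il6st, which encodes gp130 and led this list in FPKM, was at 14.9 to 17.9 FPKM. Of the 5 peptides and receptors that control hormone release, 4 were counted, none passed the unadjusted threshold, and Ghsr, the ghrelin receptor, was the most abundant at 0.129 to 0.282 FPKM.

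Markers of other cells in the tissue were measured beside the pathway. Across all genes, 4.82% were higher in the libraries labelled DHEA at an unadjusted p under 0.05 in edgeR, and 4.49% were lower. All 6 of 6 oligodendrocyte markers were higher at that threshold. Their summed level was 6584 ± 816 against 4983 ± 727 CPM (SD, n = 4, exact permutation p = 0.0286, the smallest that 4 against 4 allow). Mbp, which encodes myelin basic protein, had a log2 fold change of 0.39 (SE 0.10, adjusted p = 0.245 in edgeR). Of 6 astrocyte markers 4 were higher (Gja1, Slc1a3, Gfap and Slc1a2), as were some microglial markers, P2ry12 among them, and 1 of 7 hippocampal markers (Spink8). Only 2 of the 7 hippocampal markers had a positive log2 fold change, with a median of -0.07. Their summed level was 1070 ± 10.7 against 1129 ± 86.6 CPM (SD, n = 4, exact permutation p = 0.229). Of the 7 meningeal, 7 interneuron and 4 thalamic markers none passed, and Dcn, Sst and Slc17a6 were the most abundant of these lists. After adjustment no gene of these lists passed in edgeR, beside 0.0% of all genes. Genes that included Cnp of the oligodendrocyte list and Ly6c1 and Slco1a4 of the endothelial list passed with DESeq2. It called 1.27% of all genes to which it gave an adjusted p. The part of these cell types in the levels of the pathway genes was not tested.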

How the data were processed

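Counts of 8 libraries of mouse ventral hippocampus were analysed. Per the deposited records and the methods, the authors trimmed reads of 150 bp (fastp), aligned them with HISAT2 and counted reads per gene with HTSeq. The study's methods do not name fastp and give FastQC for the processing of raw reads. The build was GRCm39 in the submitters' processing notes, and versions and strand setting are not given in the sources used here. The deposited FPKM values are these counts divided by the total and 1 length per gene, which held within 0.1% for 25234 of 25234 genes, so isoforms were not separated.

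TMM normalization and the quasi-likelihood test were run in edgeR 4.0.16 (R 4.3.3, prior count 0.125) over 27612 of 29442 genes, those counted at least once, with Benjamini-Hochberg adjustment over all of them. CPM are TMM-normalized. Single values were compared by two-sided exact permutation tests over 70 allocations, whose smallest p is 0.0286, and correlations over 40320 pairings. A floor of 3 counts is 0.0808 to 0.0952 CPM per library and covers counting error only. The labels give no batch or pairing. The methods give 4 mice per group, but the labels do not tie each library to a mouse, so p-values measure the spread between libraries, which may be partly technical. No pair of libraries of a group agreed within sampling noise.

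The genes and lists were chosen with earlier results of these data known. Named genes were the 10 pathway genes, Gh, Prl, list genes with an unadjusted p under 0.05 and a mean count of at least 10, the most abundant gene of each list by FPKM, and the 3 genes most like Ghr, Prlr and Igf1. The most abundant gene was taken by mean FPKM over the 8 libraries, and was not always the highest in each library. Some genes that this rule names are not reported here. Fshb, Gnrhr, Pou1f1, Lhb, Tbx19, Tshb, Ghrhr, Igfbp2 and the promoter motif were added. Alternatives were DESeq2 1.42.0, RLE normalization, 3 other filters on low counts, robust moderation, limma-trend (limma 3.58.1) on log2(FPKM + 1) and, with the smaller pseudocount, log2(FPKM + 0.1), and leaving out each library. Leaving out both libraries with the lowest Ttr level and removing each library's GC trend (lowess, span 0.3) were added after the data were seen. The scripts were tested on simulated data.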

Additional observations from a re-analysis of the deposited data

Results flagged for a closer look

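In 6 of 44 groups of 4 libraries examined, 1 library lay far from the other 3 relative to the group's range (Dixon's 95% critical value), where chance gives about 1 in 20 groups, or 2.2. Ghr was flagged in both groups. DHEA replicate 3 was at 12.9 CPM, above 10.9 to 11.2 CPM in the others (gap over range 0.841), and sesame oil replicate 4 at 11.2 CPM, above 9.98 to 10.1 CPM (0.909). Socs3 was at 2.46 CPM in DHEA replicate 4, above 1.32 to 1.49 CPM in the others of its group (0.854). Gh was counted in only 1 of the libraries labelled DHEA, replicate 4, with 3 counts, where the gap over range (1.0) follows from the other 3 libraries being at 0, although it is counted among the 6. The summed anterior pituitary marker level was 6.92 CPM in sesame oil replicate 2, above 2.16 to 2.84 CPM (0.859), of which Pomc alone was 4.93 CPM, and this is the library with the most Gh and Prl counts. The summed oligodendrocyte marker level was 7802 CPM in DHEA replicate 2, above 6087 to 6283 CPM (0.886), and this is the library with the lowest Prlr level.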

How the results depend on the processing

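The number of all genes with an adjusted p under 0.05 was 0 in the edgeR analysis reported, 154 with DESeq2, 4 with robust moderation, 12 without both libraries with the lowest Ttr level, and 0 to 93 when each library was left out, with 93 without DHEA replicate 3. None of the 10 pathway genes was among those with an adjusted p under 0.05 in any of the 18 alternatives, though DESeq2 gave an adjusted p to only 7 of them and none to Gh or Prl. The number of pathway genes with an unadjusted p under 0.05 was 0, and 1 with DESeq2, RLE normalization, at least 10 counts, filterByExpr, the GC trend removed (Socs2 in each) and without both libraries with the lowest Ttr level (Prlr), and 0 to 1 when each library was left out (Socs2 without DHEA replicate 1, Prlr without DHEA replicate 2). The 8 further pathway genes became 5 with filterByExpr, 5 in the limma-trend fit of log2(FPKM + 1), 4 with a pseudocount of 0.1 in its place, and 4 to 10 when each library was left out, with 4 without sesame oil replicate 2 and without sesame oil replicate 3. All genes with an unadjusted p under 0.05 numbered 2571 in the edgeR analysis reported. They numbered 1786 to 3667 when each library was left out and 1824 to 2605 over the other alternatives. Of the latter, filterByExpr gave 2106 and the limma-trend fits 2604 and 2605. The 3667 and the highest count of further pathway genes, 10, were both without DHEA replicate 3. Signs turned for Igf1 and Igf1r, near 0. The log2 fold change of Igf1 was -0.017 without both libraries with the lowest Ttr level and -0.018 to 0.205 when each library was left out, with -0.018 without sesame oil replicate 2. That of Igf1r was -0.082 to 0.022 when each library was left out, with 0.011 without DHEA replicate 2 and 0.022 without sesame oil replicate 3. Gh missed the unadjusted threshold with limma-trend on log2(FPKM + 1) and was removed by filterByExpr, and the adjusted p of Prl was also under 0.05 without both libraries with the lowest Ttr level (0.0465 in edgeR). Of 215 log2 fold changes of the 10 pathway genes, Gh and Prl over the alternatives, 202 kept their direction and side of the unadjusted threshold. The cause of these changes was not tested. The trend of counts with GC content separated the groups, with r of -0.081 to -0.0011 in the DHEA group and 0.038 to 0.102 in the sesame oil group. No paired analysis was possible because the labels give the groups no shared numbers, and the replicate numbers used here follow the order of deposit.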
